A study of Mus musculus with 6 samples.

Results

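The genes described here are 10 transcription regulators linked to the lymphoid fate of blood progenitors. Among them are the Ikaros family zinc finger genes Ikzf1, Ikzf2 and Ikzf5 and the chromatin organizer gene Satb1. The others are the E protein genes Tcf3, Tcf4 and Tcf12 and the Id inhibitor genes Id1, Id2 and Id3. All 10 were found by symbol in a table of 49997 genes. All 10 passed the filter on low counts that left 21445 genes for testing. Long-term haematopoietic stem cells (LT-HSCs), the marrow cells that renew themselves and supply all blood lineages, were sorted by flow cytometry from 4-month-old mice labelled C57BL/6J. The labels name no treatment and do not say whether the mice carried a modified Ociad1 allele. One population had low and the other high levels (the low and the high group) of Asrij, the endosomal and mitochondrial protein encoded by Ociad1, and each was measured by bulk RNA-seq in 3 libraries. The labels do not tell how Asrij was read in the sort or whether each library came from its own mouse, so p-values cover the spread between these libraries, which may be technical.

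Ikaros family proteins bind DNA through zinc fingers, form dimers with each other and bring the nucleosome remodelling and deacetylase (NuRD) complex to their targets, and Ikaros itself is needed for lymphoid priming of multipotent progenitors. E proteins are basic helix-loop-helix factors that bind E box sequences as dimers and drive lymphoid genes. Id proteins keep the helix-loop-helix but lack the basic region, so that they hold E proteins in dimers that do not bind DNA. SATB1 folds chromatin into loops and promotes the lymphoid potential of stem cells.

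RefSeq (GRCm38.p6, the assembly of mm10) gave windows of 250 bases upstream of a transcript start. For 7 of the 10 genes, 14 windows in all were searched. Ikzf2 and Id1 had no window, and Tcf4 was left out of the search. The stretches below are those parts of 5 windows that hold no annotated GENCODE M21 exon, shown because 3 of them lie before genes that were higher in Asrij high, 1 before a gene that was lower and 1 before a gene that did not pass the test. Capitals mark matches to the letters searched on both strands, which were the E boxes CAGCTG and CAGGTG, the Ikaros core TGGGAA and the SMAD-bound element GGCGCC.
Ikzf1, chr11:11685675-11685924, plus strand: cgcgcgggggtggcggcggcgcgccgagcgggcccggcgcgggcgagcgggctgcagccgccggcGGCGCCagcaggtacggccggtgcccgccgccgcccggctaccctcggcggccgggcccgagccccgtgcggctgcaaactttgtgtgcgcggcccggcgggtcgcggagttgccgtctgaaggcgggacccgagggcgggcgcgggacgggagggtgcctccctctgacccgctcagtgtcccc
Tcf3, chr10:80433648-80433885, minus strand: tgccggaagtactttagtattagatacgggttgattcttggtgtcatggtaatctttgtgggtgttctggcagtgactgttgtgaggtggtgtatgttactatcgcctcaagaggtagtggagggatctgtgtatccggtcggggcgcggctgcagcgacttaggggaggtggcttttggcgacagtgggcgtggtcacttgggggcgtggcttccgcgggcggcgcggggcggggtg
Tcf12, chr9:72111203-72111451, minus strand: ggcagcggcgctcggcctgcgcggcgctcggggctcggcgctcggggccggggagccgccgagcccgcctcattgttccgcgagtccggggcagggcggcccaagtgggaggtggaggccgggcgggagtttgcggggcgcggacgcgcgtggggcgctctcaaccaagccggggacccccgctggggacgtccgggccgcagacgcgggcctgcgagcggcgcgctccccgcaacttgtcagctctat
Satb1, chr17:51832673-51832818, minus strand: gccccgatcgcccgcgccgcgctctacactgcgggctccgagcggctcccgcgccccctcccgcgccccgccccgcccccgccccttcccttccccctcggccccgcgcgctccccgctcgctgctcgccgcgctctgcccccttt
Id2, chr12:25096254-25096342, minus strand: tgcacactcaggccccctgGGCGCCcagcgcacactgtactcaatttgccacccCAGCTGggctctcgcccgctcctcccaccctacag
Over the whole windows, CAGCTG occurred in 3 of 14 (before Id2, Satb1 and Tcf12, for the last 2 genes in windows other than those shown) and in 13% of 32851 windows of all genes. The other E box occurred in 1 of 14 windows against 17.2% of all, and the Ikaros core in 1 of 14 against 21.6%. Both stood before Satb1 in windows not shown. All E box and Ikaros core matches counted for Satb1 lie in windows made up wholly of annotated exon bases (250 of 250). GGCGCC stood in 3 of 14 windows, before Id2, Ikzf1 and Satb1, against 9.59% of all. Before Satb1 it stood 225 bases upstream, outside the stretch shown, and 174 bases upstream, across the edge of that stretch and so not marked. Some genes have several windows, which can overlap, and a match describes letters only, without any measure of binding.

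The Asrij low libraries held 24707012 to 46240743 counts and the Asrij high libraries 62732782 to 72855125, so low genes were measured less precisely in Asrij low. Levels are CPM, counts set relative to library size with TMM factors, with mean ± SD and n = 3 per group unless single libraries are given. Positive log2 fold changes mean a higher level in Asrij high, and SE is the standard error. Adjusted p-values come out of the quasi-likelihood test in edgeR, with Benjamini-Hochberg adjustment over all genes tested, and the threshold was 0.05. Ociad1 was at 80.3 ± 5.76 CPM in the high group and 51.6 ± 5.72 CPM in the low group (log2 0.64 ± 0.16, adjusted p = 0.0115), a call lost with library totals or upper quartile factors and without Asrij high replicate 1 (adjusted p = 0.133, 0.0834 and 0.0831). Of 12 LT-HSC markers all were tested and had counts in both groups. Their summed level was 1663 to 1968 CPM in the low group and 540.1 to 895.2 CPM in the high group. Of the 12, 10 were lower in Asrij high (83.3%, against 17.7% of all genes tested). Among these were the surface receptor genes Procr (log2 -3.08) and Slamf1 (-2.38).

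Relatives within a family went in different directions. Ikzf1, Ikzf5, Tcf3 and Tcf12 were higher in Asrij high, Ikzf2, Satb1 and Tcf4 were lower, and Id1, Id2 and Id3 did not pass the test. That makes 7 of 10 called (70%), where the background over all genes tested was 39.4%, and 4 higher (40%) and 3 lower (30%) against backgrounds of 21.7% and 17.7%. The 7 called genes are those whose mean reached 10 CPM or more, and among all genes at that level 56.1% were called. The groups did not overlap for 8 of the 10 genes, against 55.0% of all genes tested. Of these, 4 were higher and 4 lower, against 30.2% and 24.8% of all genes. The median log2 fold change was 0.30 over the 10 genes and -0.02 over all tested. Library totals or upper quartile factors in place of TMM moved the median of all genes by -0.27 and turned the share of calls that were higher from 55.1% to 40.2% and 39.9%, so fold changes are relative to TMM scaling.

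**Figure D1:**
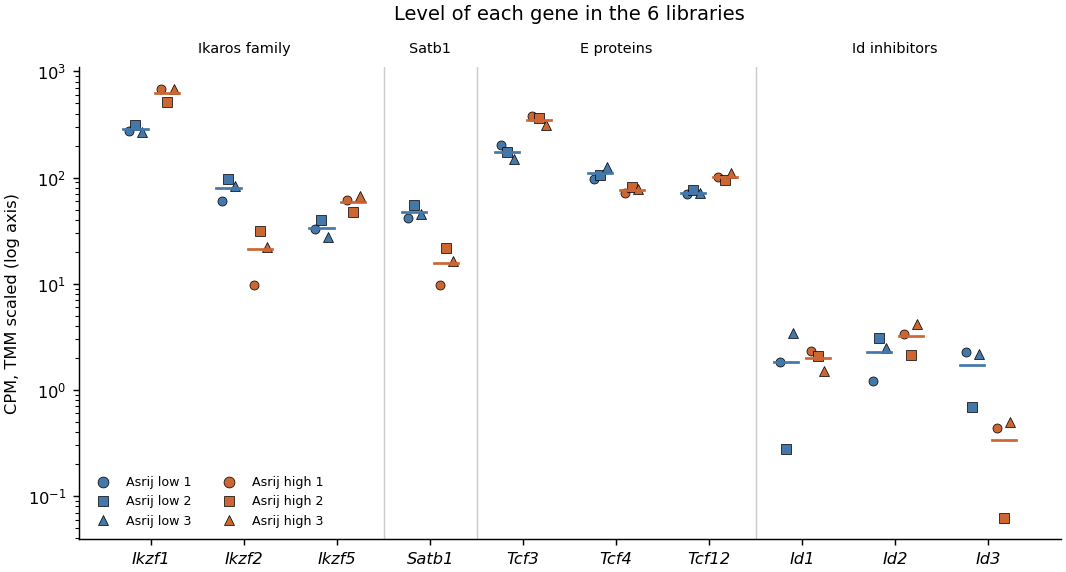
Level of each of the 10 genes in CPM (log axis), with 1 symbol per library, blue for Asrij low and orange for Asrij high, and bars at the group means. The symbols of the 7 genes above 10 CPM fall into separate groups, while those of Id1 and Id2 overlap between groups.

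Ikzf1, which encodes Ikaros, was the most abundant of the 10 genes in CPM (chromosome 11, 11684962 to 11772930). It had 271.7, 314.4 and 269.4 CPM in Asrij low replicates 1 to 3 and 685.3, 512.0 and 681.1 CPM in Asrij high. No library of the low group reached any of the high group, with replicate 2 the lowest of the Asrij high group. The change was 2.20-fold (log2 1.13 ± 0.18, adjusted p = 0.00156), and the call held under all 14 alternative settings, with log2 values from 0.86 to 1.30.

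Ikzf2 encodes Helios, the Ikaros relative known from stem cells and regulatory T cells, and it went the opposite way (chromosome 1, 69531207 to 69687351). It had 59.9, 96.4 and 84.1 CPM in the low group and 9.83, 31.6 and 22.0 CPM in the high group. The groups did not overlap, and Asrij high replicate 1 was 3.21-fold below replicate 2 of its own group. The mean was 3.79-fold lower in Asrij high (log2 -1.92 ± 0.38, adjusted p = 0.00441), a difference larger in size than that of 82.7% of tested genes, and it passed the threshold under all 14 alternatives.

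Ikzf5 encodes Pegasus, a more distant family member (chromosome 7, 131388649 to 131410518). Its levels were 32.9, 39.6 and 27.8 CPM in the low group and 61.9, 47.8 and 67.6 CPM in the high group. The lowest Asrij high library, replicate 2, was still above the highest Asrij low library. The change was log2 0.82 ± 0.21 (adjusted p = 0.0118), and the call was lost when Asrij high replicate 3 was left out (log2 0.68, adjusted p = 0.0589) and with library totals as the only scaling (0.55, adjusted p = 0.0624). In GENCODE M21, 4652 of the 5721 exon bases of Ikzf5 overlap exons of Pstk on the opposite strand. Pstk had 177 to 555 counts per library against 719 to 4457 for Ikzf5, and because the strand setting of the counting is not given in the sources used here, their reads may not be fully told apart.

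The balance within the Ikaros genes was therefore different in the Asrij low and Asrij high populations. To set genes side by side, CPM were divided by the merged exon length in kilobases (RPKM), and the sum of Ikzf1, Ikzf2 and Ikzf5 was taken as 100%. Ikzf2 made up 8.90%, 11.9% and 12.3% of this sum in Asrij low replicates 1 to 3 and 0.649%, 2.73% and 1.44% in Asrij high. Ikzf1 made up 79.6 ± 1.52% in Asrij low and 89.8 ± 1.10% in Asrij high. With the length of the principal transcript in place of merged exons, the Ikzf2 share was 12.03 ± 2.02% and 1.77 ± 1.15%. These shares rest on the same counts as the tests above and are given without a test of their own.

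Other Ikaros genes fell as Ikzf2 did. Ikzf3 encodes Aiolos, which is abundant in B cells, and had 7.64, 16.6 and 19.2 CPM in Asrij low against 0.826, 1.07 and 1.502 CPM in the high group (log2 -3.67 ± 0.45, adjusted p = 5.21e-04). Ikzf4, which encodes Eos, had 6.70, 6.58 and 5.83 CPM in the low group and 0.331, 0.691 and 1.08 CPM in the high group (log2 -3.18 ± 0.51, adjusted p = 0.00163). For both, every Asrij high library was far below every Asrij low library. Over the same libraries the 12 B cell markers summed to 71.3 to 128.1 CPM in the low group and 8.74 to 13.3 CPM in the high group. Of these markers 9 of 12 were lower (75%, against 17.7% of all genes tested), among them Pax5 (log2 -4.52). None of the 12 was at 0 in all libraries of a group. Their part in the fall of Ikzf3 was not tested. In bulk RNA, fewer cells of a type and less RNA per cell cannot be told apart.

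Satb1 lay with the falling genes (chromosome 17, 51736187 to 51833290). It had 41.8, 54.9 and 45.2 CPM in the low group and 9.68, 21.5 and 16.3 CPM in the high group. The groups were separate, and as for Ikzf2 the lowest library was Asrij high replicate 1 and the one nearest to Asrij low was Asrij high replicate 2. The mean was 2.99-fold lower in Asrij high (log2 -1.58 ± 0.29, adjusted p = 0.00294), past the threshold under all 14 alternatives, with log2 values from -1.91 to -1.37.

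**Figure D2:**
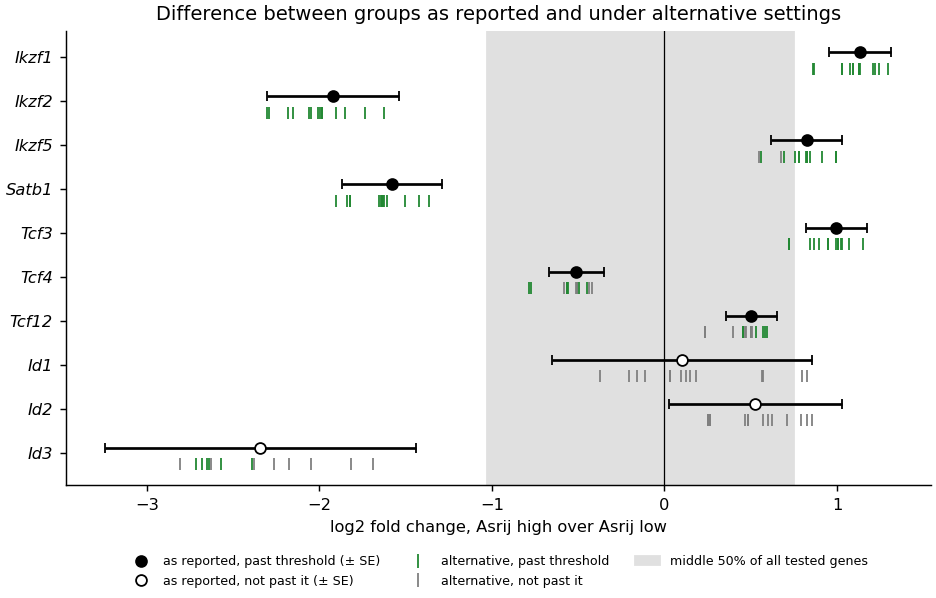
Log2 fold change, Asrij high over Asrij low, of the 10 genes with SE (circles, filled where past the threshold) and under each of 14 alternative settings (ticks, green where past the threshold), over a grey band that holds the middle 50% of all tested genes (-1.03 to 0.75). Ikzf1, Ikzf2, Satb1 and Tcf3 have green ticks only, and Tcf4 and Tcf12 lie inside the band.

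Among the E proteins, Tcf3 rose. It encodes E2A, whose E12 and E47 forms come from alternative exons that gene counts do not separate (chromosome 10, 80409541 to 80433976). It had 203.1, 173.6 and 149.6 CPM in the low group and 376.6, 363.4 and 310.6 CPM in the high group. Every Asrij high library lay well above the highest Asrij low library, and the change was 1.996-fold (log2 0.997 ± 0.17, adjusted p = 0.00234). The call held under all 14 alternatives, with log2 values from 0.72 to 1.15.

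Tcf12, which encodes HEB, the partner of E2A in early T cells, differed less (chromosome 9, 71844252 to 72111893). Its levels were 69.5, 75.8 and 71.2 CPM in the low group and 101.5, 94.7 and 110.6 CPM in the high group. The libraries of each group lay close together and the groups were separate, with a 1.42-fold difference (log2 0.50 ± 0.15, adjusted p = 0.0226). The call was lost in 7 of 14 alternatives. It fell to log2 0.23 with library totals (adjusted p = 0.245) and with upper quartile factors (0.201), and it missed the threshold when Asrij low 1 (0.0607), Asrij low 3 (0.0553), Asrij high 1 (0.105) or Asrij high 3 (0.142) was left out, and with the replicate number as a term (0.0565).

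Tcf4 encodes E2-2, the E protein that plasmacytoid dendritic cells depend on, and it was the one E protein gene that fell. It had 97.7, 105.0 and 126.8 CPM in the low group and 71.6, 80.8 and 78.6 CPM in the high group, so that the groups were separate by a narrow margin. The difference was 1.43-fold (log2 -0.51 ± 0.16, adjusted p = 0.0304). It was lost in 6 of 14 alternatives, among them those without Asrij low replicate 3 (log2 -0.42, adjusted p = 0.0648) and without Asrij high replicate 1, 2 or 3 (0.104, 0.0505 and 0.0666) and that without a count filter (0.0927) and that with the replicate number as a term (0.055). The 10 plasmacytoid dendritic cell markers summed to 56.9 to 109.0 CPM in the low group and 33.3 to 38.6 CPM in the high group. Of 6 tested, 3 were lower (50%, against 17.7% of all genes), among them Spib (-3.85) and Pacsin1 (-3.23). Bst2 (log2 0.25), Irf7 (-0.72) and Ccr9 (-1.66) did not pass the test. Klk1 was at 0 in all Asrij low libraries, with 3, 5 and 2 counts in Asrij high. Cd300c was at 0 in all Asrij high libraries, with 0, 10 and 0 counts in Asrij low. As in Tcf4, Asrij low replicate 3 had the highest sum. Most of that sum came from Irf8, Irf7 and Spib (38.7, 29.3 and 23.6 CPM), and Siglech had 1.39 CPM there. The part of these markers in the Tcf4 difference was not tested.

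Per length, Tcf3 was the leading E protein gene in all libraries. It stood at 43.4 ± 6.63 RPKM in Asrij low and 86.7 ± 8.64 RPKM in Asrij high, against 4.65 ± 0.209 and 6.58 ± 0.512 for Tcf12 and 4.01 ± 0.551 and 2.81 ± 0.177 for Tcf4. In Asrij low the RPKM of Ikzf1 (49.4 ± 4.39) and Tcf3 overlapped, and which of them was higher changed with the length used, at 55.2 ± 4.91 for Ikzf1 and 59.5 ± 9.08 for Tcf3 per kilobase of principal transcript. Of the summed RPKM of the 3 E protein genes, Tcf4 made up 6.12%, 7.42% and 10.01% in Asrij low and 2.55%, 2.98% and 3.31% in Asrij high. Merged exons of Tcf4 span 27382 bases against 8577 in its principal transcript, and with the latter its share was 15.5 ± 3.44% in Asrij low and 6.27 ± 0.736% in Asrij high. The level of the Tcf4 share thus depends on the length, and its order between groups was the same with both.

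**Figure D3:**
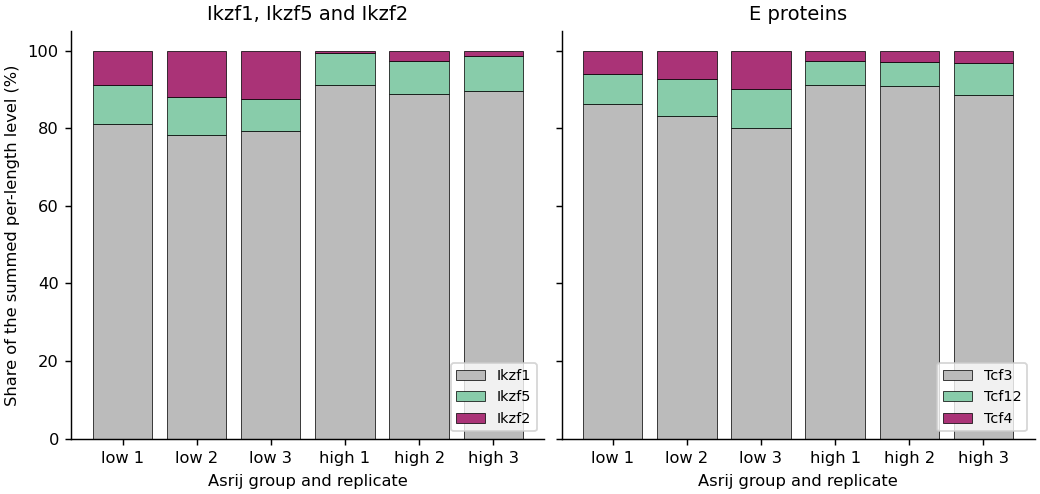
Share (%) of each gene in the summed RPKM of Ikzf1, Ikzf5 and Ikzf2 (left) and of the E protein genes Tcf3, Tcf12 and Tcf4 (right), with 1 bar per library. Ikzf2 takes 8.90% to 12.3% in Asrij low and 0.649% to 2.73% in Asrij high, and Tcf4 takes 6.12% to 10.01% and 2.55% to 3.31%.

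The Id genes were low in both populations, and none of the 3 passed the test. Id1 (chromosome 2, 152736251 to 152737410) had 1.83, 0.277 and 3.44 CPM in the low group and 2.33, 2.09 and 1.52 CPM in the high group, from 8 to 133 counts per library. The Asrij low libraries spread 12.4-fold and enclosed all Asrij high libraries, and the log2 fold change of 0.10 ± 0.75 (adjusted p = 0.929) changed sign between alternatives (-0.37 to 0.83). Id2 (chromosome 12, 25093799 to 25096092) had 1.22, 3.08 and 2.47 CPM in the low group and 3.38, 2.14 and 4.20 CPM in the high group, with overlapping groups (log2 0.53 ± 0.50, adjusted p = 0.436).

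Id3 showed the greatest log2 difference of the 10 genes in size and the least certain one among the separate groups (chromosome 4, 136143822 to 136145392). It had 2.26, 0.693 and 2.16 CPM in the low group and 0.441, 0.0628 and 0.501 CPM in the high group, from 122, 20 and 56 counts against 24, 4 and 33. The groups did not overlap, but Asrij low replicate 2 was close to Asrij high replicates 1 and 3. The log2 fold change of -2.34 ± 0.90 missed the threshold (adjusted p = 0.0648). It was past it in 6 of 14 alternatives, with DESeq2 (log2 -2.39, adjusted p = 0.0216), limma-voom (-2.71, 0.0421), library totals (-2.65, 0.0426), upper quartile factors (-2.64, 0.0453), the replicate number as a term (-2.57, 0.0402) and without Asrij low replicate 2 (-2.68, 0.039).

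The fourth family member, Id4, had 1.11, 0.277 and 3.40 CPM in the low group and 0.110 CPM in the high group replicate 1, from 6 counts, with no count in Asrij high replicates 2 and 3, which allows up to 3 counts in each. Its call (log2 -5.41 ± 1.57, adjusted p = 0.0225) did not hold when Asrij low replicate 3 was left out (-4.27, adjusted p = 0.0845), nor with Asrij high replicate 2 (-4.79, 0.0568) or 3 (-4.88, 0.0609) left out. The fitted fold rests on those 6 counts and gives no bound, since without Asrij high replicate 1 all remaining libraries of that group are at 0 and the fit gives -9.30. Within Asrij low, replicate 2 was the lowest and replicate 3 the highest library for both Id1 and Id4. The 12 stromal and reticular cell markers summed in Asrij low replicates 1 to 3 to 355.1, 266.1 and 856.3 CPM, the same order. In Asrij high they summed to 58.3 to 99.5 CPM, with 9 of 11 tested lower (81.8%, against 17.7% of all genes). The erythroid sums (14183, 5969 and 41019 CPM) and the granulocyte and monocyte sums (2410, 851.9 and 3508 CPM) had that order as well. The 12 endothelial markers, some of which stem cells also express, did not, with 384.8, 435.1 and 552.1 CPM in Asrij low. They ranged from 200.6 to 478.9 CPM in Asrij high, with 5 of 12 lower (41.7%, against 17.7% of all genes). No marker of these lists was at 0 in all libraries of a group, and their part in the Id levels was not tested.

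Set against the E proteins per length, Id transcripts were scarce. The summed RPKM of Id1, Id2 and Id3 came to 5.73%, 3.66% and 11.2% of that of the 3 E protein genes in Asrij low and to 3.56%, 2.74% and 3.81% in Asrij high. The groups overlapped, since Asrij low replicate 2 lay below Asrij high replicate 3. The sum of the Id genes was 3.47 ± 1.65 RPKM in Asrij low and 3.22 ± 0.472 RPKM in Asrij high, while that of the E protein genes was 52.1 ± 6.05 and 96.1 ± 8.15 RPKM.

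Genes that work with these factors moved in different directions. NuRD and other corepressor subunits, through which Ikaros proteins act, were higher in 10 of 16 cases and lower in 1, with a median log2 fold change of 0.78. That is 62.5% higher, against 21.7% of all genes tested. Every gene of this list lay above 10 CPM, a level at which 56.1% of all genes were called in either direction. The NuRD subunit genes Mbd2 (log2 1.68 ± 0.23, adjusted p = 7.87e-04) and Mbd3 (0.96 ± 0.15, 0.00143) and the histone-binding subunit gene Rbbp7 (1.37 ± 0.23, 0.00211) rose. The remodelling ATPase gene Chd3 was the member that fell, from 282.5 ± 20.05 to 123.2 ± 9.43 CPM (log2 -1.20 ± 0.15, adjusted p = 6.20e-04). Its paralogue Chd4 had 1033 ± 148 and 1357 ± 70.3 CPM and did not pass the test (0.39 ± 0.18, adjusted p = 0.11).

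Partners of E proteins in DNA-bound complexes were mixed, with 3 of 17 higher and 4 lower (median -0.11). These shares, 17.6% higher and 23.5% lower, are near those of all genes tested (21.7% and 17.7%). Gata1, the erythroid GATA factor gene, rose by 1.63 ± 0.21 (adjusted p = 6.63e-04), and the corepressor gene Cbfa2t3, also known as Eto2, fell from 464.6 ± 44.4 to 199.9 ± 71.6 CPM (log2 -1.22 ± 0.24, adjusted p = 0.00436). Both calls held under all 14 alternatives. Runx1t1, whose groups overlapped (log2 -1.99, adjusted p = 0.0335), and the histone deacetylase scaffold gene Sin3a (0.48, 0.0366) were past the threshold, as were 3 genes named after their values were seen, Lmo2 (-0.52, 0.0369), Kat2a (0.54, 0.0399) and Gata2 (-1.92, 0.0417). Each of these 5 calls was lost when single libraries were left out, so that 1 to 3 members were higher and 1 to 4 lower in such fits. Gata2 had 71.4, 304.5 and 60.2 CPM in Asrij high against 372.5 to 671.1 CPM in Asrij low. Without Asrij high replicate 2 it was at log2 -3.03, and it missed the threshold when 1 of 4 other libraries was left out, which were Asrij low 1 (adjusted p = 0.0929), Asrij low 2 (0.062), Asrij high 1 (0.195) and Asrij high 3 (0.105). Tal1, Lyl1 and Ldb1, whose proteins join E proteins in stem cell and erythroid complexes, did not pass the test (log2 0.30, -0.61 and 0.28). Lyl1 was past the threshold in 9 of 14 alternatives, the other scalings, DESeq2, limma-voom and the replicate number as a term (adjusted p = 0.0431) among them, and Tal1 and Ldb1 in 0.

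Genes that mark lymphoid-primed progenitors were mostly lower in Asrij high. Of 20 tested, 14 fell (70%, against 17.7% of all genes) and 1 rose (median -1.53). The other 5 did not pass the test, Rag2 (log2 -3.01, adjusted p = 0.145), Dntt (-1.19, 0.215), Ccr9 (-1.66, 0.104), Bcl11a (-0.002, 0.993) and Myb (-0.02, 0.951). Of the falls, those of Rag1 and Mef2c held in 8 of 14 alternatives, that of Flt3 in 12 and that of Cd34 in 13. The rest held in all 14. The co-stimulatory receptor gene Cd27 had 82.8, 65.8 and 75.3 CPM in the low group and 10.4, 26.9 and 15.2 CPM in the high group (log2 -2.09 ± 0.32, adjusted p = 0.00133). Notch1 (-1.81 ± 0.29) and the common cytokine receptor chain gene Il2rg (-1.39 ± 0.22) fell as well. The member that rose was Gfi1, a repressor gene with roles in stem, myeloid and lymphoid cells (1.22 ± 0.28, adjusted p = 0.00736). Il7r, the receptor of the main lymphoid cytokine, did not pass the filter on low counts, with 0 to 74 counts in Asrij low and 4 to 8 in Asrij high. Granulocyte and monocyte markers summed to 851.9 to 3508 CPM in the low group and 4319 to 7263 CPM in the high group. Of the 12, 5 were higher and 1 lower (41.7% and 8.33%, against 21.7% and 17.7% of all genes). Erythroid markers summed to 5969 to 41019 and 4600 to 7570 CPM, and in Asrij low these sums consist mostly of the globin genes Hba-a1 and Hbb-bt. By gene, 7 of the 12 erythroid markers were higher and 3 lower (58.3% and 25%, median 1.72), with Car1 at log2 4.05 and Hba-a1 at -3.05. No member of these lists was at 0 in a whole group. T and NK cell markers summed to 74.0 to 83.0 and 21.0 to 47.4 CPM, with 3 of 8 tested lower (37.5%, against 17.7% of all genes). Of these sums Lat gave 56.8 to 66.5 CPM in the low group and 10.3 to 37.2 CPM in the high group. Plasma cell markers summed to 54.4 to 62.8 and 47.9 to 57.1 CPM, mostly from Xbp1, which did not pass the test (log2 0.22). Of 6 tested, 2 were lower (33.3%, against 17.7% of all genes), Irf4 (-4.15) and Prdm1 (-2.71). Tnfrsf17 was at 0 in all Asrij high libraries and had 0, 14 and 0 counts in Asrij low. The part of these markers in the differences was not tested.

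BMP signals reach Id genes in many cells through receptors and SMAD proteins, and most genes listed for this pathway, its inhibitors included, were lower in Asrij high. Of 16 tested, 12 were lower (75%, against 17.7% of all genes) and 0 higher (median -1.58). Smad6, Smad7, Smurf1, Ski and Skil, whose proteins restrain the pathway, are among the 12. The inhibitory SMAD gene Smad6 had 8.31, 7.38 and 9.96 CPM in the low group and 0.478, 1.13 and 0.652 CPM in the high group (log2 -3.50 ± 0.45, adjusted p = 6.40e-04). The type II receptor gene Bmpr2 (-1.66 ± 0.23), the ubiquitin ligase gene Smurf1 (-1.58 ± 0.24) and the shared mediator gene Smad4 (-1.19 ± 0.20) fell too. The receptor genes Bmpr1a (-1.59, adjusted p = 0.0955) and Eng (-0.18, adjusted p = 0.432) did not pass the test. Of the tested genes, Bmp2, Bmp6, Bmpr1a, Acvr1, Acvrl1, Smad6 and Smurf1 had their highest level in Asrij low replicate 3, as did the stromal marker sum (856.3 CPM). Bmpr2, Smad4, Smad5, Smad7, Smurf2 and Ski had it in Asrij low replicate 2, and Smad1, Skil and Eng in Asrij low replicate 1. The stromal and LT-HSC sums given above were lower in all Asrij high libraries. The part of those cells in the differences was not tested.

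**Figure D4:**
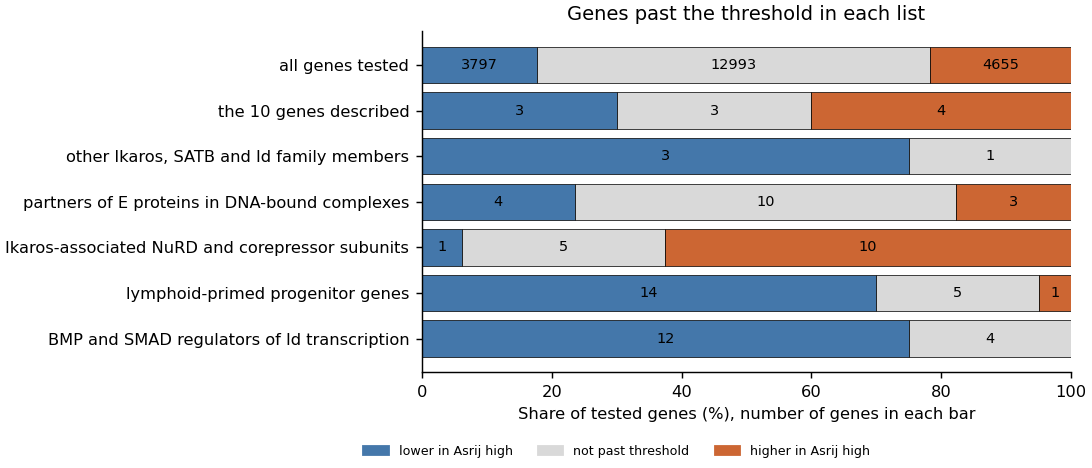
Share (%) of tested genes that were lower (blue), not past the threshold (grey) or higher (orange) in Asrij high, for all genes tested, the 10 genes described and 5 lists of related genes, with gene numbers printed in the bars. NuRD and corepressor subunits are mostly higher (10 of 16), and lymphoid-primed (14 of 20) and BMP and SMAD genes (12 of 16) mostly lower.

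Likeness between genes was measured as the root mean square difference of log2 CPM over the 6 libraries, each gene centred on its mean, among 82 candidate genes from these lists and the 10. Tcf4 lay nearest to Crebbp (0.05), Tcf12 to Sin3a (0.10), Ikzf1 and Ikzf5 to the NuRD subunit gene Mta2 (0.11 and 0.12), and Tcf3 to the NuRD subunit gene Gatad2a (0.14). Satb1 lay nearest to Bmpr2 (0.17) and Ikzf2 to the stem and progenitor surface gene Cd34 (0.19). Id2 and Id3 had no match as near, with smallest differences of 0.39 and 0.66. All genes share the same 6 libraries, and genes that differ alike between the groups are alike by this measure.

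Asrij high replicate 2 was the library of its group nearest to Asrij low for Ikzf1, Ikzf2, Ikzf5, Satb1, Tcf4 and Tcf12, by a narrow margin for Tcf4. For Tcf3 that was replicate 3, and for Id3 replicate 2 was the farthest from Asrij low. Replicate 2 also had the highest LT-HSC marker sum of its group, at 895.2 CPM against 540.1 and 578.5 CPM. Without it the log2 fold changes were 1.30 for Ikzf1, -2.29 for Ikzf2, 0.99 for Ikzf5, -1.82 for Satb1 and 0.59 for Tcf12. For Tcf3 (1.01) and Tcf4 (-0.51) they stayed near the values with all libraries, and for Id3 the difference was smaller (-1.82, adjusted p = 0.133).

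**Figure D5:**
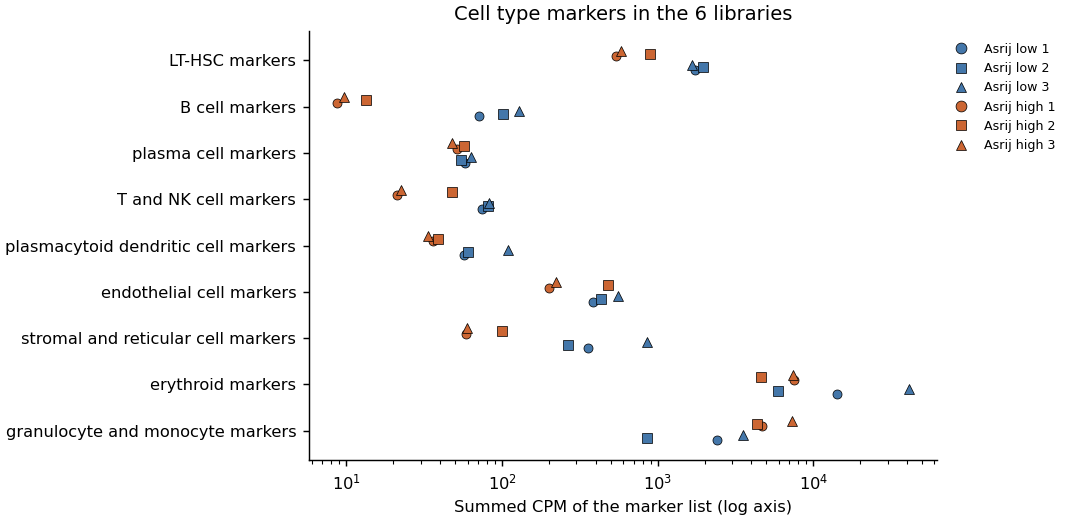
Summed CPM of each cell type marker list (log axis), with 1 symbol per library, blue for Asrij low and orange for Asrij high. The LT-HSC, B cell, T and NK cell, plasmacytoid dendritic cell and stromal lists lie apart between the groups, with lower sums in Asrij high. For B cell markers these are 71.3 to 128.1 against 8.74 to 13.3 CPM. The granulocyte and monocyte list lies apart as well, with higher sums in Asrij high. Asrij high replicate 2 has the highest LT-HSC sum of its group (895.2 CPM).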

How the data were processed

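RNA of sorted cells was made into libraries with ribosomal RNA depletion and a directional kit, per the labels' protocols, although the molecule field names polyA RNA. The authors deposited whole-number counts per gene symbol for 6 libraries, not normalized. The submitters' processing notes list Subread, SAMtools, HISAT2 and FastQC and the build mm10, without versions, and neither the annotation nor the strand setting is known from them. Columns were tied to samples by library name.

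Counts were fitted in R 4.3.3 with edgeR 4.0.16 (quasi-likelihood test, TMM factors, robust shrinkage, a term for group alone) after filterByExpr (minimum count 10, minimum total count 15), and SEs were derived from the test statistic. The pipeline was tested on simulated data. Alternatives were other scalings, no filter, DESeq2 1.42.0, limma-voom (limma 3.58.1), the replicate number as a term and left-out libraries. RPKM used merged GENCODE M21 exons, and principal transcript lengths were added after seeing the data. Libraries of a group differed by more than counting noise (chi-square 82.5 to 183 per degree of freedom), so none was taken for a duplicate.

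The 10 genes and the lists were chosen with earlier results of these data known. Besides them and Ociad1, the text names up to 4 called genes with the smallest p per related list and up to 2 per marker list. It also names nearest genes by likeness. Named after their values were seen were Lmo2, Kat2a, Gata2, Gfi1, Chd4, Tal1, Lyl1, Ldb1, Il7r, Pstk, Hba-a1, Hbb-bt, Xbp1, Bst2, Irf7, Irf8, Ccr9 and Siglech. Flt3, Rag1, Rag2, Dntt, Mef2c, Bcl11a and Myb were named likewise. Further BMP and SMAD genes and markers at 0 were named in that way too. List members are counted in each direction without a set test, and a few genes that these rules pick are not reported here.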

Additional observations from a re-analysis of the deposited data

How the results depend on the processing

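Under the 14 alternatives the calls of Ikzf1, Ikzf2, Satb1 and Tcf3 held, those of Ikzf5, Tcf4 and Tcf12 were lost in 2, 6 and 7, and that of Id3 was gained in 6. No called gene of the 10 changed direction. Library totals as the only scaling left 2 of the 10 genes higher in place of 4. With 1 library left out, 2 to 4 of the 10 were higher, 2 to 4 were lower and 5481 to 8935 genes were called among all tested, in place of 8452. The low values came without Asrij high replicate 3 (2 higher, and 5863 genes called) and without Asrij high replicate 1 (5481 genes called). The cause was not tested, beyond the smaller number of libraries. Groups share replicate numbers, and deviations of same-numbered libraries from their group means had correlations of 0.01, 0.04 and 0.23 for numbers 1 to 3. Those of differently numbered libraries ran from -0.157 to 0.102. With means of 3 libraries these values cannot settle whether the numbers are pairs, and the main fit did not take them as pairs. With the replicate block 8088 genes were called, and 3 of the 10 genes were higher and 3 lower, as the calls of Tcf12 (adjusted p = 0.0565) and Tcf4 (0.055) were lost and that of Id3 was gained (0.0402). Counts of Id genes, at 4 to 277 per library, limit what can be shown for them.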
